A study of Mus musculus with 59 samples.

Results

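The diaphragm was compared with the soleus in mice that carried a non-cachectic melanoma, across all genes of the deposited expression table. The comparison used 14 of the 59 libraries of the series, namely the 9 diaphragm libraries of the mock-treated non-cachectic group and the 5 soleus libraries of the non-cachectic group. All mice were female NCI Ath/nude, 4 months old, an athymic strain that lacks mature T cells but keeps B cells and macrophages. Each carried the human melanoma MAST552A, a patient-derived xenograft of the flank that does not cause muscle loss, so no mouse was free of tumour. The diaphragm mice had received mock intraperitoneal injections of BSA in PBS without rFibcd1, whereas the soleus labels name no injection, so muscle and injection cannot be told apart. Per the study's methods, the muscle portion of the diaphragm was taken and its tendons were removed. The series compared cachectic with non-cachectic melanomas and tested rFibcd1, a recombinant secreted protein, in the diaphragm. The table also allows the question asked here, how the muscle of breathing and a slow postural muscle of the hindlimb differ.

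Skeletal muscle fibres are classed by their myosin heavy chain. Slow type 1 fibres use Myh7, fast oxidative type 2A fibres use Myh2, intermediate 2X fibres use Myh1 and the fastest 2B fibres use Myh4, and each class has its own troponins, light chains and calcium pumps. The mouse diaphragm is a thin sheet of mostly fast, fatigue-resistant fibres that contracts with every breath, is covered by mesothelium on its peritoneal and pleural faces and arises from cervical somites. The soleus is a small antigravity muscle of the calf, rich in slow and 2A fibres, and arises from lumbar somites.

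Values are TPM (transcript abundances per length, which sum to the same total in every library), so sequencing depth is unknown. Genes above 0 numbered 18133 to 18844 in diaphragm and 17791 to 18191 in soleus libraries. On the first principal component, which held 54.7% of the variance, the muscles separated. The second, at 15.2%, was led by 1 diaphragm library, Dia64, whose 10 liver markers summed to 10673.5 TPM against 906 TPM in the next highest diaphragm library. Dia66, Dia68 and Dia70, 3 of the diaphragm libraries, held the processed pseudogene Pcna-ps2 at 8.07 to 9.83 TPM, while the other 6 and the 5 soleus libraries were at 0.0436 TPM or less. The first set is called high-state and the rest low-state, and each count was repeated with the 6 low-state diaphragm libraries alone. The labelled tissues were checked by the slow myosin Myh7, at 4288 TPM or more in every soleus library and 419 TPM or less in every diaphragm library. For diaphragm genes, 3 values given in a row are the lowest, the median and the highest of the 9 libraries. Soleus values are given for all 5 libraries. Fold changes are diaphragm minus soleus on log2(TPM + 1), with their SE.

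Of 12569 genes tested, 6918 (55%) differed at an adjusted p under 0.05 (limma, Benjamini-Hochberg). Of all tested genes, 21.9% (2748) were higher and 33.2% (4170) lower in diaphragm, with a median log2 fold change of -0.06. Most differences were small: 834 of the called genes differed by at least 1 on the log2 scale, 508 of them higher and 326 lower. The groups did not overlap in TPM for 29.4% of the tested genes. With the 6 low-state diaphragm libraries, 6756 of 12296 genes (54.9%) were called, 18.8% higher and 36.2% lower. Among the 6779 genes that were called with all libraries and tested in both fits, 6169 were called in the same direction and 0 in the opposite one. The balance of higher and lower calls depended on scaling, since the 13 mitochondrially encoded genes took a larger share of TPM in diaphragm. Calls were higher in 39.7% of cases as deposited, 46.8% after median-ratio scaling and 67.2% when the mitochondrially encoded genes were left out and the rest rescaled, which moved the median log2 fold change of all genes to 0.11. After that rescaling 7566 of 13658 genes (55.4%) were called, 37.2% higher and 18.2% lower. Each count of list members below is to be read beside the 21.9% higher and 33.2% lower of all tested genes as deposited, or beside these shares where it is given after the rescaling. Small differences below are therefore given with that shift in mind, and directions that depend on it are named. A gene was tested where at least 5 of the libraries held it at 1 TPM or more, so a gene low in 1 muscle could pass only through the other, and its direction then follows from that filter. Of the genes named below, 2310008N11Rik, Alox15, Gata4, Gata6, Hoxb2, Hoxb4, Igkc, Krt19, Lrrn4, Meis2, Msln, Mstn, Mybpc2, Osr1, Pax3, Rspo1, Ryr3, Saa3, Shox2, Slpi, Upk1b, Upk3b and Wt1 passed through diaphragm alone, and Hoxa10, Hoxa13, Hoxb6, Hoxc10, Hoxc11, Mettl21c and Myl10 through soleus alone. For these the levels describe the difference, and the call adds no support for its direction.

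Slow-fibre sarcomere genes were lower in the diaphragm almost without exception. Of 13 tested, 12 were lower and 0 higher, with a median log2 fold change of -3.44. Myh7 (chromosome 14, 54970684 to 54994626, GRCm38), the slow myosin heavy chain, was at 265, 347 and 419 TPM in diaphragm and at 4407, 4288, 5313, 5166 and 5550.4 TPM in soleus. Every soleus library lay far above every diaphragm library, and the log2 fold change was -3.85 ± 0.10 (adjusted p = 8.21e-13, limma). Tnnc1 (chromosome 14, 31208312 to 31211729), the calcium-binding troponin of slow and cardiac muscle, was at 319.8, 395 and 470.3 TPM against 5489.8, 5942, 7706, 6799 and 7475 TPM (log2 fold change -4.05 ± 0.09, adjusted p = 1.87e-13). Its partners in the slow thin filament behaved alike, with log2 fold changes of -3.98 for Tnni1, -3.44 for Tnnt1 and -3.54 for the slow tropomyosin Tpm3. Among light chains, the difference with a pseudocount of 1 was widest for Myl6b (chromosome 10, 128494157 to 128498685), an essential light chain of slow muscle. Myl6b was at 5.11, 10.2 and 19.7 TPM in diaphragm and 529.9, 580.1, 862, 447 and 519 TPM in soleus (log2 fold change -5.61 ± 0.26, adjusted p = 4.20e-10). With a pseudocount of 0.1 it was at -5.73, against -6.90 for the light chain Myl10, which passed the filter through soleus alone. The other slow light chains, Myl3 and Myl2, had log2 fold changes of -4.03 and -2.96. Smaller differences were found for Myoz2 (-1.99), which anchors calcineurin at the Z-disc, for Mybpc1, the slow myosin-binding protein C, at 1349 to 1639 TPM against 2817 to 3168 TPM, and for Myom3 (-0.84) of the M-band. Actc1, cardiac actin, did not pass the test, at 3.67 to 44.4 TPM against 25.9, 22.2, 35.1, 20.1 and 29.8 TPM (log2 fold change -1.01, adjusted p = 0.0836). For Actc1 the log2 fold change was -1.58 and called with the low-state libraries (adjusted p = 0.000787), which made 13 of 13, and 0.14 with the high-state libraries (adjusted p = 0.781).

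Fast-fibre sarcomere genes were mostly higher in the diaphragm, but by less. Of 13 tested, 11 were higher, 1 was lower and 1 was not called, with a median log2 fold change of 1.01. With a pseudocount of 1 the largest log2 fold change of all tested genes was that of Mybpc2 (chromosome 7, 44501699 to 44524656), the fast myosin-binding protein C, at 336, 406 and 555 TPM in diaphragm and 10.5, 1.59, 2.01, 27.0 and 0.982 TPM in soleus (log2 fold change 6.22 ± 0.49, adjusted p = 1.10e-07). With a pseudocount of 0.1 it was 6.65, below Upk3b (8.58), 2310008N11Rik (6.99) and Slpi (6.86). Soleus libraries themselves spread from 0.982 to 27.0 TPM and stayed below every diaphragm library. Myh1 (chromosome 11, 67200052 to 67224575), the 2X myosin, was at 3184, 4539 and 4925 TPM against 513, 139, 83.2, 497 and 132 TPM (log2 fold change 4.40 ± 0.36, adjusted p = 1.70e-07). Myh2, the 2A myosin and neighbour of Myh1, did not separate the muscles, at 2306, 2762 and 3334 TPM against 3635, 3145, 3039, 2087 and 2079.9 TPM (log2 fold change -0.01 ± 0.13, adjusted p = 0.978). Myh4, the 2B myosin, ranged from 13.8 to 567 TPM in diaphragm and from 7.34 to 24.9 TPM in soleus, so the groups overlapped although the gene was called (log2 fold change 3.38 ± 0.69, adjusted p = 0.000792, or 4.13 with the high-state libraries alone). Actn3, the Z-disc actinin of fast fibres, had a log2 fold change of 2.98. The fast troponins Tnnt3 (1.16), Tnni2 (1.08) and Tnnc2 (0.78), the fast light chain Mylpf (1.01), Myoz1 (0.98), Tpm1 (0.71) and Myl1 (0.44) were all called higher. Myom2, an M-band protein, was the exception and was lower (-0.78, adjusted p = 0.000425). The plot of sarcomere isoforms shows that the slow genes lay far apart while the fast thin-filament genes were high in both muscles.

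**Figure D1:**
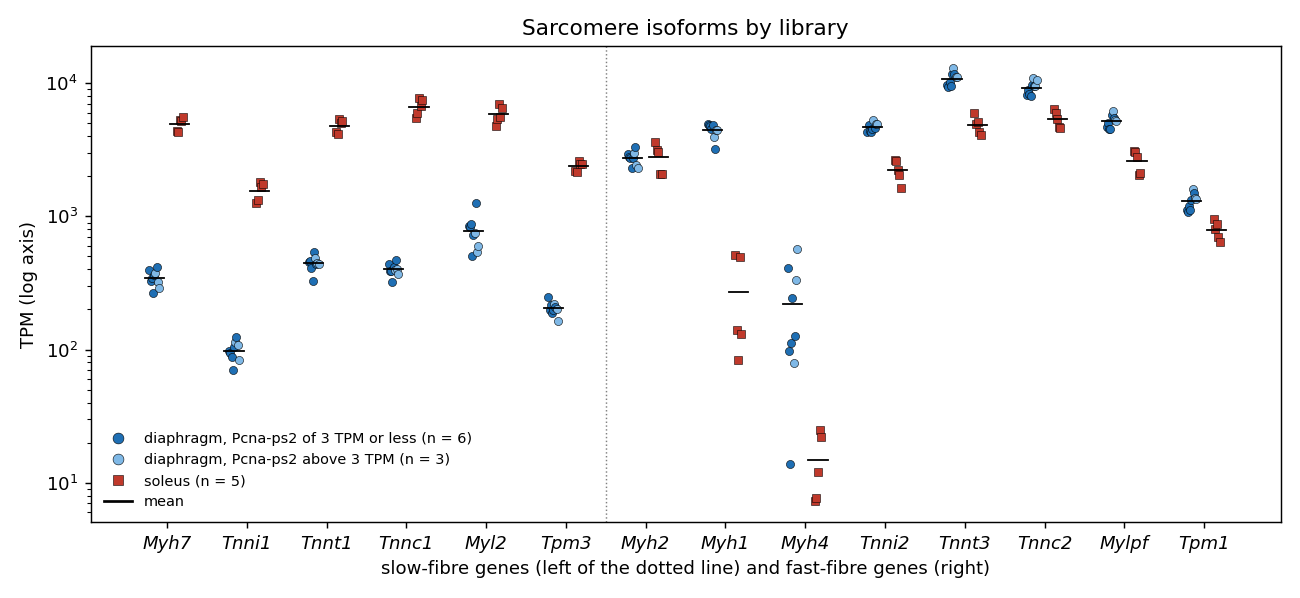
TPM (log axis) of 6 slow-fibre and 8 fast-fibre sarcomere genes in each of the 9 diaphragm libraries (circles, low-state dark and high-state pale) and 5 soleus libraries (squares), with the arithmetic mean of each muscle as a bar. The slow genes do not overlap between muscles, Myh2 overlaps fully, and Myh1 lies at 3184 to 4925 TPM in diaphragm against 83.2 to 513 TPM in soleus.

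The sequences just before the start sites of the genes at the ends of this contrast are shown, since Mybpc2 was among the 10 genes furthest above and Tnnc1 among the 10 furthest below soleus. Each run is the 250 bases before the RefSeq start site on GRCm38, 5′ to 3′ on the gene's strand, at chr7:44524670-44524919 (minus strand) for Mybpc2 and chr14:31208062-31208311 (plus strand) for Tnnc1. Capitals mark matches to CANNTG, the E-box bound by myogenic factors, and to CATTCC or its reverse complement GGAATG, the MCAT element bound by TEAD factors, both searched on both strands.
Mybpc2: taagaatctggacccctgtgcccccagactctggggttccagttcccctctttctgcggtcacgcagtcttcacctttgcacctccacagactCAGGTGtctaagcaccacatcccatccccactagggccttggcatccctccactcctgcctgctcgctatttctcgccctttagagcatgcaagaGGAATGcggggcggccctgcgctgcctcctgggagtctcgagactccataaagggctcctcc
Tnnc1: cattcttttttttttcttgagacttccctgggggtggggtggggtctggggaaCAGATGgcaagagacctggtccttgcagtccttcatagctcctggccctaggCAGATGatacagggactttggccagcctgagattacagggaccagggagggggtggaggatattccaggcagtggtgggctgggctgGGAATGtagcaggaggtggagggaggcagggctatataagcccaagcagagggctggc
The Mybpc2 window held 1 E-box and 1 MCAT match, and the Tnnc1 window held 2 E-boxes and 1 MCAT match. In the same 250 upstream bases of 32851 RefSeq promoter windows, 66.2% held an E-box and 12.6% an MCAT match, so a match describes the letters only. No exon of GENCODE M21 overlapped either run.

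The shares of isoforms within a library gave the same contrast without reference to other genes. Myh7 made 61.7% ± 7.86 (SD, n = 5) of the summed TPM of Myh7, Myh2, Myh1 and Myh4 in soleus and 4.45% ± 0.691 (SD, n = 9) in diaphragm. Myh1 took 3.38% ± 2.59 and 57.3% ± 5.22 in the same order. For both, as for the slow shares of the troponin, light chain and calcium pump pairs, the exact two-sided permutation test over 2002 regroupings gave p = 0.0004995, the smallest it can give (adjusted p = 0.000714 over 10 shares). Myh2 made 34.7% ± 7.64 of soleus and 35.4% ± 5.18 of diaphragm myosin (exact permutation, adjusted p = 0.822). Myh4 made 0.186% ± 0.108 and 2.81% ± 2.32 (exact permutation, adjusted p = 0.0244), the latter spread from 0.174% to 7.45% of single diaphragm libraries. The slow troponin I share, Tnni1 of Tnni1 and Tnni2, was 41.4% in soleus and 2.05% in diaphragm, and the slow light chain share, Myl2 of Myl2 and Mylpf, was 69.0% and 12.9%. For orientation, tibialis anterior of the non-cachectic group (n = 5) held Myh4 at 63.2%, Myh1 at 32.9% and Myh7 at 0.00508%, so the diaphragm stood between soleus and tibialis anterior in Myh7 and above both in Myh1.

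Specialised myosins differed as well. Myh6, the alpha cardiac myosin whose start lies 28.8 kb from that of Myh7, was at 50.5, 70.3 and 84.4 TPM against 873, 814, 1014, 1024 and 1075 TPM (log2 fold change -3.83 ± 0.12, adjusted p = 3.31e-12). Its coding sequence is near-identical to Myh7, so reads of the slow myosin could have been assigned to it and its level is uncertain. Embryonic Myh3 was at 0.0654, 3.05 and 8.82 TPM against 26.3, 37.9, 23.3, 27.3 and 49.0 TPM and was lower in diaphragm (log2 fold change -3.21, adjusted p = 0.000213, or -2.11 with the high-state libraries alone). Neonatal Myh8 spread from 0.341 to 54.6 TPM in diaphragm, overlapped soleus and was not called (adjusted p = 0.253), but had a log2 fold change of 2.84 with the high-state libraries alone (adjusted p = 0.00117). Myl10 (chromosome 5, 136693146 to 136701094), a regulatory light chain, was at 0, 0.0415 and 0.341 TPM in diaphragm and at 14.4, 19.3, 25.8, 19.6 and 16.4 TPM in soleus (log2 fold change -4.20, adjusted p = 6.22e-13).

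Genes of calcium handling went both ways. Pvalb (chromosome 15, 78191114 to 78206400), the calcium buffer parvalbumin of fast fibres, was at 317, 650.4 and 893 TPM in diaphragm and at 29.3, 10.4, 6.76, 63.1 and 3.89 TPM in soleus (log2 fold change 5.24 ± 0.49, adjusted p = 6.91e-07). The soleus values varied widely but none reached the diaphragm. Atp2a2, the slow and cardiac calcium pump SERCA2, was lower in diaphragm at 374, 757 and 856 TPM against 3392, 3674, 4117, 4388 and 4809 TPM (log2 fold change -2.62, adjusted p = 3.28e-08), while the fast pump Atp2a1 was higher by 0.38. The pump inhibitors went opposite ways: sarcolipin (Sln) was at 871, 1099 and 1785 TPM against 462, 307, 544, 569 and 476 TPM (log2 fold change 1.36), and phospholamban (Pln) was lower (-1.66). Among genes of the triad and the sarcoplasmic reticulum, Ryr1 (-0.51), Srl (-0.58), Jsrp1 (-0.93), Stac3 (-0.95), Jph2 (-0.54) and Hrc (-0.39) were lower. Ryr3, a minor release channel that the diaphragm is known to use, passed the filter through diaphragm alone, at 1.52, 2.25 and 2.63 TPM against 0.118, 0.204, 0.334, 0.565 and 0.554 TPM (log2 fold change 1.24). Of 10 genes on the fast calcium list 3 were higher and 5 lower, and of 8 on the slow list 2 were higher and 5 lower, so neither list moved as a block.

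Of 26 tested transcriptional regulators of fibre type, 6 were higher and 14 lower (9 lower with the high-state libraries alone; median -0.24, or -0.09 with the mitochondrially encoded genes left out). Sox6, a repressor of slow-fibre genes, was higher in diaphragm at 10.1, 11.4 and 13.9 TPM against 6.64, 6.45, 6.09, 6.80 and 6.65 TPM (log2 fold change 0.77, adjusted p = 3.57e-07). Lower were Esrrg (-1.24), an estrogen-related receptor linked to oxidative slow muscle, Prox1 (-1.07), which favours the slow programme, Rcan1 (-1.47), a calcineurin target, Mef2c (-0.61) and Tead1 (-0.62). Ppargc1a, the coactivator of mitochondrial biogenesis, was higher (1.10, adjusted p = 0.0029, or 1.80 with the high-state libraries alone), at 13.6 to 44.3 TPM against 7.62 to 12.2 TPM. Maf was higher (0.82), yet it is also expressed in macrophages, whose markers were higher in diaphragm too, and the part of those cells in the result was not tested. Tbx15 (0.00) and Nfatc1 (-0.10) were not called. Of 9 myogenic factors, 7 were lower and 1 was higher (4 lower with the mitochondrially encoded genes left out and 3 with the high-state libraries alone). The higher one was Pax3, a marker of some satellite cells that passed the filter through diaphragm alone, at 1.98, 2.31 and 4.00 TPM in diaphragm and at 0, 0.00886, 0, 0 and 0 TPM in soleus (log2 fold change 1.79, adjusted p = 5.44e-09). Lbx1, the factor of migrating limb muscle precursors, was lower at 7.97, 9.07 and 10.5 TPM against 36.9, 24.6, 27.4, 30.9 and 25.3 TPM (-1.56). Pax7, the general satellite cell factor, was lower by less (-0.40, not called with the mitochondrially encoded genes left out, adjusted p = 0.0609), and Myog, which drives differentiation, had a log2 fold change of -0.73 (not called with the high-state libraries alone, adjusted p = 0.0855).

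Hox genes of body position differed between the muscles. These genes are expressed along the body axis in the order of their place in each cluster, with low paralogue numbers at the neck and high numbers at the lumbar and limb levels. Of 16 listed genes of paralogue groups 9 to 13, 7 passed the filter of 1 TPM in 5 libraries. All 7 passed it through soleus alone, so their being lower in diaphragm was fixed by the filter and their count supports nothing; their levels are given as a description. Of 23 listed genes of groups 1 to 8, 16 were tested, of which 10 were higher and 3 lower, and 5 of the 16 passed through diaphragm alone and 1 through soleus alone. Hoxc10 (chromosome 15, 102966796 to 102971893) was at 0, 0.0261 and 0.0511 TPM in diaphragm and at 49.5, 52.4, 57.2, 58.3 and 56.6 TPM in soleus (log2 fold change -5.76 ± 0.05, adjusted p = 2.38e-19). Hoxc6, 31.5 kb away in the same cluster and tested through both muscles, was higher in diaphragm, at 8.71, 10.2 and 13.1 TPM against 3.12, 2.94, 3.08, 4.04 and 2.90 TPM (log2 fold change 1.47 ± 0.10, adjusted p = 2.19e-08). In the HoxA cluster Hoxa5 was higher at 9.83, 11.3 and 15.0 TPM against 2.29, 1.84, 3.60, 2.68 and 2.79 TPM (1.83 ± 0.11), and Hoxa10, 29.4 kb away, was at 0.0151, 0.0454 and 0.321 TPM against 8.65, 7.48, 7.50, 6.76 and 8.65 TPM (-3.02 ± 0.08). Hoxa11, Hoxa13 and Hoxc11 were listed at 0 in all 9 diaphragm libraries, while soleus held them at 0.569 to 2.16, 1.38 to 2.37 and 6.27 to 9.77 TPM. Of the lower numbers, 3 genes were lower in diaphragm: Hoxa7 (-0.31), Hoxb6 (-0.30) and, from the HoxD cluster, Hoxd8 (-1.65). Hoxa7 (adjusted p = 0.180) and Hoxb6 (adjusted p = 0.0754) were not called with the mitochondrially encoded genes left out, nor was Hoxa7 with the low-state libraries (adjusted p = 0.0589). Hoxb4 (1.65), Hoxc5 (1.51) and Hoxb2 (1.01) were higher. In tibialis anterior, the other hindlimb muscle, Hoxc10 was at 56.5 to 70.8 TPM, like soleus.

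**Figure D2:**
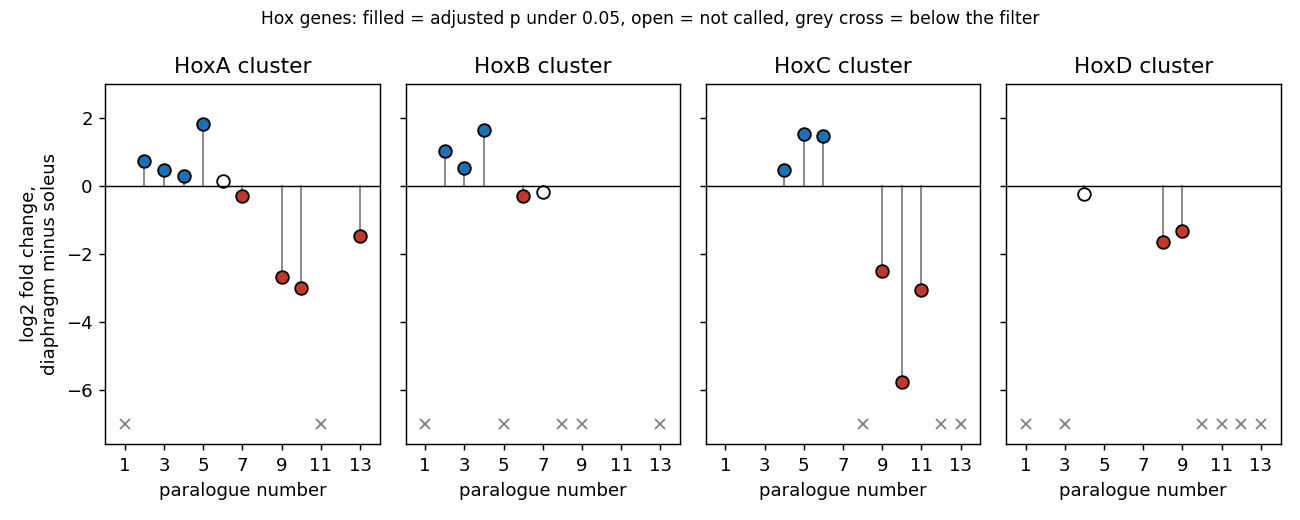
Log2 fold change (diaphragm minus soleus, on log2(TPM + 1)) of Hox genes by paralogue number in the 4 clusters, with called genes filled, others open and genes below the expression filter as crosses at the foot. The tested genes of groups 9 to 13, which passed the filter through soleus alone, lie below 0 (Hoxc10 at -5.76) and most of groups 2 to 6 above it (Hoxa5 at 1.83); the values of Hoxa13 and Hoxc11 rest on diaphragm libraries listed at 0.

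Factors of limb and body wall identity went both ways. Shox2 (chromosome 3, 66971727 to 66981771), a homeobox gene of proximal skeletal patterning, was at 19.0, 21.6 and 24.1 TPM in diaphragm and 1.33, 0.546, 0.928, 0.786 and 1.12 TPM in soleus (log2 fold change 3.54 ± 0.09, adjusted p = 3.24e-13), and at 0.463 to 0.699 TPM in tibialis anterior. Meis2, a Hox cofactor of proximal identity, was higher (1.91), at 2.71 to 3.70 TPM against 0.0751 to 0.138 TPM. Tbx4, the hindlimb T-box factor, was lower (-1.33), at 1.08 to 1.78 TPM against 4.04 to 5.30 TPM, and Pitx1, its upstream hindlimb factor, was below the filter at 0 to 0.0195 TPM in diaphragm and 0.358 to 0.678 TPM in soleus. En1 (-1.37) and Emx2 (-0.83) were lower. Gata4 (1.62), Gata6 (1.47) and Wt1 (2.11), which are needed for the connective tissue of the diaphragm and are also mesothelial or macrophage genes, were higher. Of 15 tested genes on this list 8 were higher and 5 lower, the latter a share near the 33.2% of all tested genes, and 6 of the 15 passed the filter through diaphragm alone.

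Genes of mechanical load and of the stress of the sarcomere were lower in the diaphragm. Of 18 tested, 16 were lower and 0 higher, with a median of -1.06, and 9 of the 18 did not overlap between muscles, beside 33.2% lower and 29.4% not overlapping among all tested genes. Ankrd2, a stretch-responsive ankyrin-repeat protein, was at 33.5, 127 and 285 TPM against 862, 1186, 1352, 876 and 1464 TPM (log2 fold change -3.29 ± 0.41, adjusted p = 1.10e-05, or -3.89 with the high-state libraries alone). Csrp3, the muscle LIM protein of the Z-disc, was at 31.0, 75.7 and 124 TPM against 389, 418, 508, 281 and 515 TPM (-2.39, adjusted p = 1.14e-05). Of the small heat shock proteins on this list, Hspb6 (-1.51), Hspb7 (-1.40), Cryab (-1.16), Hspb1 (-0.72) and Hspb8 (-0.41) were lower, the last not with the high-state libraries alone (adjusted p = 0.0615). So were Fhl1 (-1.92), Nrap (-1.30), filamin C (Flnc, -1.27) and its chaperone partner Bag3 (-0.86). Fhl2 (-0.27) and Mybph (0.31) were not called.

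Energy genes differed slightly. The 13 mitochondrially encoded genes took 47.5% ± 2.97 of TPM (SD, n = 9) in diaphragm and 41.1% ± 2.00 (SD, n = 5) in soleus (exact permutation, adjusted p = 0.00187). The lowest diaphragm library, at 41.9%, lay below the highest soleus library, at 44.0%, so the groups overlapped. Of the 13 genes, 8 were called higher and 0 lower as deposited, but 4 higher and 1 lower (mt-Nd5, -0.33, adjusted p = 0.0105) with the high-state libraries alone, and quantile normalization took their median from 0.23 to 0.02. Of 76 nuclear genes of oxidative phosphorylation, 40 were higher and 3 lower, with a median of 0.16, which rose to 0.33 with 68 higher when the mitochondrially encoded genes were left out, where 37.2% of all tested genes were higher. With the low-state libraries 35 were higher and 7 lower, with a median of 0.09. Cox7a1, the muscle isoform of a cytochrome oxidase subunit, was furthest at 1105, 1162 and 1446 TPM against 848, 825, 711, 683 and 709 TPM (log2 fold change 0.68 ± 0.08, adjusted p = 3.94e-06), and its counterpart Cox6a2 was lower (-0.33), by -0.16 with the mitochondrially encoded genes left out and not called with the high-state libraries alone (adjusted p = 0.0642). Of 19 genes of the TCA cycle and its entry, 14 were higher and 0 lower (median 0.22), led by Idh3a (0.58). Of 28 fatty acid genes 12 were higher and 5 lower as deposited, beside 21.9% and 33.2% of all tested genes, and 19 higher and 1 lower with the mitochondrially encoded genes left out, beside 37.2% and 18.2%. The β-oxidation enzymes Hadh (0.44) and Echs1 (0.43) were higher and Acot2, a mitochondrial thioesterase, was lower (-0.71). Of 28 genes of glycolysis and glycogen, 13 were higher and 4 lower as deposited, and 21 and 1 after that rescaling, beside the same shares of all tested genes. Gpd1, of the glycerol phosphate shuttle, was higher at 85.1, 98.8 and 119 TPM against 75.7, 36.4, 40.3, 46.7 and 46.0 TPM (1.07, adjusted p = 1.14e-05).

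A few metabolic genes stood far from the rest. Car3, carbonic anhydrase 3 of slow fibres and fat, was at 205, 561 and 753 TPM in diaphragm and 4897, 1852, 5848, 5187 and 4644 TPM in soleus (log2 fold change -3.14 ± 0.33, adjusted p = 2.35e-06). Ampd3, an AMP deaminase, was at 2.81, 3.38 and 4.42 TPM against 33.6, 26.9, 31.4, 31.7 and 34.8 TPM (-2.88, adjusted p = 3.97e-12), while the muscle form Ampd1 differed by -0.65. Cmbl, a hydrolase, was higher (1.76), at 85.3 to 115 TPM against 20.4 to 42.1 TPM. Myoglobin (Mb) did not pass the test, at 10819, 12417 and 14489 TPM against 11760.2, 13290.0, 12335, 12392 and 10436 TPM (0.05 ± 0.08, adjusted p = 0.59).

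Of 14 muscle channels and pumps, 6 were lower, 2 were higher and 6 were not called, beside 33.2% lower among all tested genes. Kcnj11, the pore of the ATP-sensitive potassium channel, was lower at 24.6, 28.7 and 33.9 TPM against 74.6, 69.5, 78.4, 89.9 and 80.6 TPM (-1.44, adjusted p = 4.86e-09), as was the calcium channel subunit Cacng1 (-1.61). Of 17 tested genes of the neuromuscular junction, 10 were lower and 1 higher (4 lower with the mitochondrially encoded genes left out and 6 with the high-state libraries alone). The acetylcholine receptor subunits Chrna1 (-1.86) and Chrnd (-0.89), the kinase Musk (-0.78) and the adhesion molecule Ncam1 (-1.42) led these, while Agrn was higher (0.25, adjusted p = 0.101 with the low-state libraries). Chrna1 was at 4.82, 6.70 and 7.49 TPM against 25.1, 28.0, 29.8, 30.2 and 21.2 TPM. Of 5 tested genes linked to muscle spindles, 3 were lower, Myh6 and Myh7b among them, which the slow fibres also express.

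Myostatin (Mstn, chromosome 1, 53061640 to 53068079), a secreted factor that limits muscle growth, was at 8.57, 15.1 and 19.7 TPM in diaphragm and 0.873, 0.304, 0.330, 0.481 and 0.187 TPM in soleus (log2 fold change 3.48 ± 0.16, adjusted p = 2.76e-10), and passed the filter through diaphragm alone. Tibialis anterior held it at 15.7 to 26.7 TPM. Its antagonist follistatin (Fst) was lower in diaphragm by less (-0.51, not called with the mitochondrially encoded genes left out, adjusted p = 0.0569). Ostn (chromosome 16, 27307489 to 27351212), the myokine musclin, was at 0.970, 1.60 and 2.20 TPM against 40.8, 50.5, 51.9, 112 and 88.1 TPM (-4.67 ± 0.20, adjusted p = 1.80e-10). Il15 (1.37), Bmp4 (1.13) and Apln (1.08) were higher. Fibcd1, the myokine of the study, was below the filter, at 0 to 0.0108 TPM in diaphragm and 0.226, 0.0692, 0.106, 0.190 and 0.273 TPM in soleus, and Itga2b was not called (0.15 ± 0.20, adjusted p = 0.55). Of 22 tested genes of myokines and growth factors 8 were higher and 4 lower, beside 21.9% and 33.2% of all tested genes, and 2 of the 22 passed the filter through diaphragm alone.

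Atrophy, clock and early-response genes gave lesser differences. Of 27 atrophy genes, 13 were lower and 3 higher as deposited, but 7 and 6 with the mitochondrially encoded genes left out. The ubiquitin ligase Fbxo32 (atrogin-1) was lower at 91.3, 106 and 137 TPM against 149.7, 173, 175, 182 and 167 TPM (-0.66, adjusted p = 6.75e-06), the mitophagy receptor Bnip3 by -1.26 and Asb5 by -1.35, while Fbxo31 (0.58) and the metallothionein Mt1 (0.88) were higher. Of 18 clock genes 0 were higher and 6 lower, led by Cry2 (-0.90), a share lower near the 33.2% of all tested genes. After the rescaling 2 were lower, beside 18.2% of all tested genes. The core oscillator Arntl was not called and spread from 1.34 to 14.6 TPM in diaphragm. Of 15 immediate-early genes 1 was higher (Junb, 0.55) and 3 lower, led by Jun (-1.14), both under the shares of all tested genes.

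**Figure D3:**
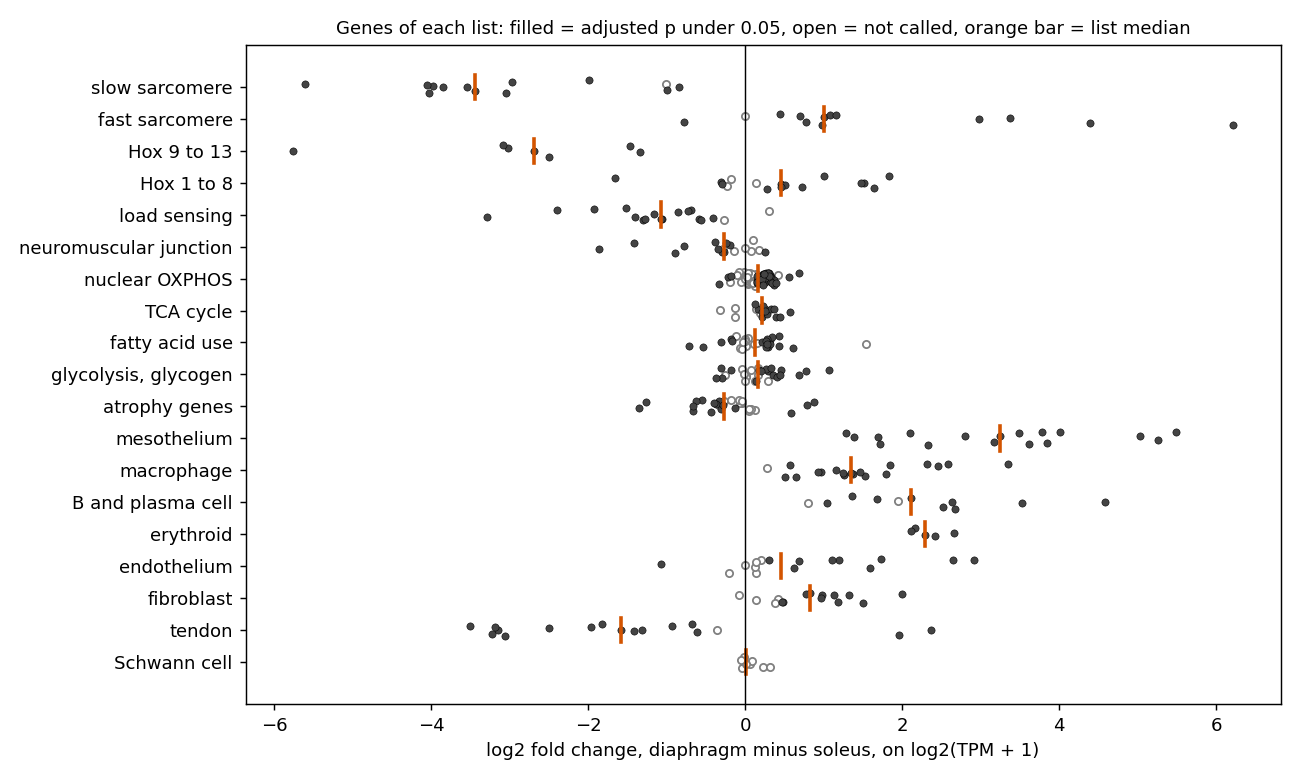
Log2 fold change (diaphragm minus soleus, on log2(TPM + 1)) of each tested gene in 19 lists, called genes filled and others open, with the median of each list as an orange bar. Slow sarcomere (median -3.44), load-sensing (-1.06) and tendon (-1.58) genes lie mostly left of 0, erythroid (2.30) and macrophage (1.36) genes right of it, and energy genes close to it; Hox groups 9 to 13 and mesothelium lie to the side of the muscle through which they passed the filter.

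Markers of cells other than muscle fibres also differed. In such bulk samples, fewer cells of a type and less RNA per cell cannot be told apart. The summed level of 18 markers of mesothelium, the lining of the body cavities, was 153 to 471 TPM against 6.18 to 8.53 TPM. Of these markers 17 were tested and called higher, but 15 passed the filter through diaphragm alone, so that count supports nothing. Upk3b (chromosome 5, 136038496 to 136046487) was at 27.1, 39.3 and 84.5 TPM in diaphragm and at 0.0152, 0.0311, 0.0475, 0 and 0 TPM in soleus (log2 fold change 5.49 ± 0.21, adjusted p = 3.41e-11). Mesothelin (Msln, chromosome 17, 25748613 to 25754378) was at 25.8, 45.3 and 72.3 TPM against 0.279, 0.856, 0.343, 0.374 and 0.240 TPM (5.03 ± 0.19, adjusted p = 4.56e-11). The protease inhibitor Slpi (5.26), Lrrn4 (4.01), Rspo1 (3.78) and Krt19 (3.49) were higher too, and Upk1b was listed at 0 in all 5 soleus libraries and at 7.22 to 22.1 TPM in diaphragm. Calb2 was listed at 0 in all 14 libraries.

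Blood and immune markers spread widely between diaphragm libraries. Of 19 macrophage markers 18 were higher and 0 lower (median 1.36), with a summed level of 284 to 933 TPM against 147 to 193 TPM. Lyz2, lysozyme, was at 129.6, 349 and 626 TPM against 83.3, 60.6, 65.6, 52.3 and 57.2 TPM (2.32, adjusted p = 9.28e-06), and Adgre1, which encodes F4/80, had a log2 fold change of 1.85. Alox15, a lipoxygenase of resident peritoneal macrophages, was at 1.79, 8.84 and 42.4 TPM against 0.0688 to 0.228 TPM (3.35, adjusted p = 8.34e-05). Of 11 tested B cell and plasma cell markers 9 were higher, though 7 of the 11 passed the filter through diaphragm alone, as did 6 of the 19 macrophage markers. Igkc, the kappa light chain constant region, spread from 3.50 through 59.1 to 1475 TPM in diaphragm and lay at 2.72, 1.55, 1.78, 1.38 and 0.953 TPM in soleus (4.59 ± 1.15, adjusted p = 0.00361, or 3.70 with the 3 high-state libraries alone). Of 5 tested erythroid genes 5 were higher (median 2.30), their sum at 2406 to 10579.5 TPM against 558 to 1675 TPM. The alpha-globin copies Hba-a1 and Hba-a2 and the beta-globins Hbb-bs and Hbb-bt are near-identical pairs, so their single levels are uncertain. Of 7 tested neutrophil and mast cell genes 6 were called higher, 0 of them without overlap, and 3 with the low-state libraries, and 2 of the 7 passed the filter through diaphragm alone. Among them Cma1, a mast cell chymase, was at 3.86 to 14.4 TPM against 5.94, 3.57, 6.29, 2.68 and 2.57 TPM.

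Among the 20 genes with the largest differences were C3 and Saa3. C3, the central complement component, was at 315, 465 and 801 TPM in diaphragm and 39.9, 23.2, 26.8, 22.3 and 27.5 TPM in soleus (log2 fold change 4.01 ± 0.21, adjusted p = 1.58e-09). Saa3, a serum amyloid A made by macrophages and mesothelial cells, ranged from 3.85 to 152 TPM against 0.212 to 1.86 TPM (4.77 ± 0.64, adjusted p = 2.09e-05). For Saa3 the log2 fold change was 5.42 with the low-state and 3.47 with the high-state diaphragm libraries. In tibialis anterior C3 was at 5.63 to 15.2 TPM and Saa3 at 0.367 to 12.5 TPM. The share of mesothelial or immune cells in these values was not tested.

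Of 16 endothelial genes 9 were higher and 1 lower (14 higher with the mitochondrially encoded genes left out). The general markers Pecam1 (-0.01), Cdh5 (0.14) and Vwf (-0.21) were not called as deposited. With 14 of the 16 genes higher after the rescaling, not all of these markers stayed uncalled there. The widest differences on the list, picked after their values were seen, were those of genes known from lymphatic vessels: Ccl21a, a lymphatic chemokine, was at 281, 439 and 689.9 TPM against 96.4, 48.8, 59.8, 49.4 and 53.4 TPM (2.91, adjusted p = 6.12e-08), followed by Mmrn1 (2.65), Lyve1 (1.73), Flt4 (1.59), Pdpn (1.20) and Reln (1.11). Pdpn is also a mesothelial gene. Prox1, the lymphatic factor that slow muscle fibres also express, was lower (-1.07). Of 15 fibroblast markers 11 were higher and 0 lower (median 0.83), with a sum of 634 to 800 TPM against 334 to 430 TPM. Osr1 (2.01), Dpp4 (1.51) and Pi16 (1.33) led them. Collagen genes went both ways, with 12 of 30 matrix genes higher and 6 lower: Col3a1 (1.11) and Col15a1 (1.19) were higher, Col1a1 (-0.87), Col1a2 (-0.73) and periostin (Postn, -1.57) lower.

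Tendon genes were the main non-muscle group lower in the diaphragm. Of 17 tested, 14 were lower and 2 higher (median -1.58), though 2 of the 17 passed the filter through soleus alone. The sum of the list was 147 to 286 TPM against 661 to 910 TPM. Comp, a cartilage and tendon matrix protein, was at 2.57, 4.16 and 7.75 TPM against 64.1, 41.3, 67.6, 61.8 and 65.4 TPM (-3.51 ± 0.20, adjusted p = 4.51e-09). Tenomodulin (Tnmd), a marker of tenocytes, was at 2.99, 6.29 and 8.97 TPM against 72.5, 51.7, 54.1, 60.2 and 67.4 TPM (-3.15 ± 0.18, adjusted p = 4.83e-09), and at 3.02 to 8.72 TPM in tibialis anterior. Since the tendons of the diaphragm were removed at dissection, dissection and muscle cannot be told apart for these genes. The exceptions, Col14a1 (2.37) and Ptgis (1.96), are also expressed by other fibroblasts. Fat and nerve differed little: of 11 tested adipocyte genes 4 were lower and 0 higher, the former a share near the 33.2% of all tested genes, with Adipoq at 10.8 to 128 TPM against 25.5 to 92.1 TPM and not called, and of 9 Schwann cell genes 0 were called. Of the 11 adipocyte genes 1 passed the filter through soleus alone. Of 10 liver genes 0 were called as deposited. Of 5 tested smooth muscle and related genes 4 were lower, Acta2 by -0.63.

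**Figure D4:**
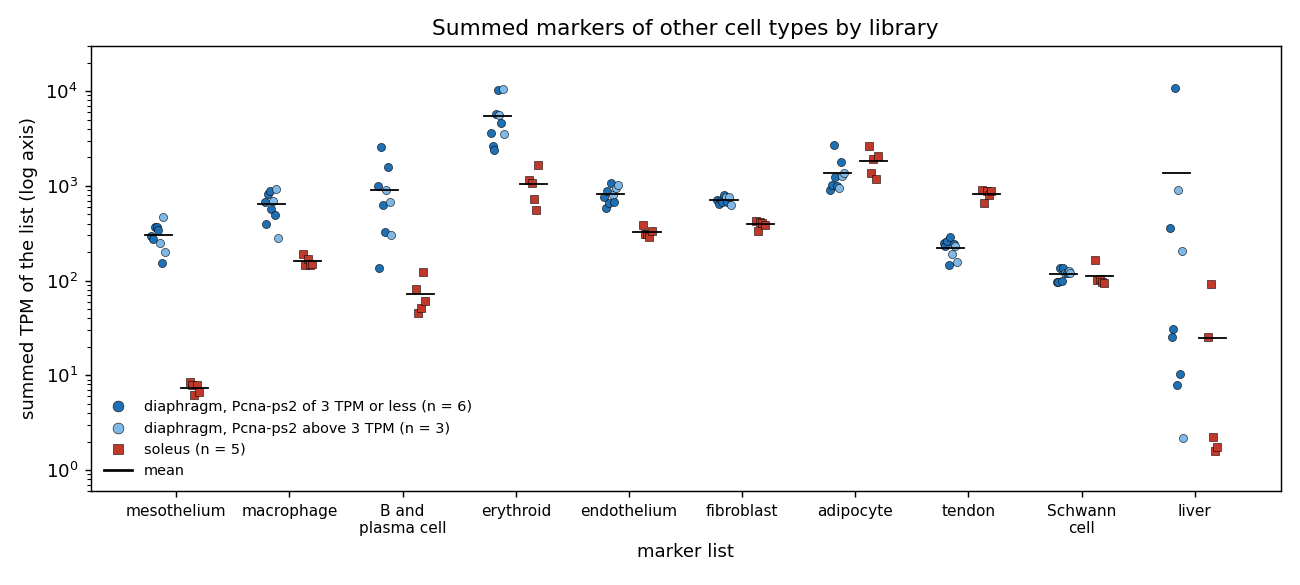
Summed TPM (log axis) of 10 marker lists in each diaphragm (circles, low-state dark and high-state pale) and soleus (squares) library, with arithmetic means as bars. Mesothelium (153 to 471 against 6.18 to 8.53 TPM), macrophage and fibroblast sums lie higher in diaphragm and the tendon sum lower, while adipocyte, Schwann cell and liver sums overlap.

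Among the 20 genes with the largest differences, a few belonged to none of these groups. Mettl21c (chromosome 1, 44009408 to 44020034), a lysine methyltransferase of muscle, was at 0.0111, 0.0691 and 0.138 TPM in diaphragm and at 61.4, 41.3, 55.8, 60.7 and 87.6 TPM in soleus (log2 fold change -5.82 ± 0.12, adjusted p = 6.05e-14). Its place against Hoxc10 depended on the pseudocount, with -8.44 for Mettl21c and -8.78 for Hoxc10 at 0.1. In tibialis anterior it was at 2.28 to 8.13 TPM. The noncoding RNA 2310008N11Rik (chromosome 8, 26814593 to 26884380, annotated as lincRNA) was at 46.9, 67.9 and 124 TPM against 0.945, 0.386, 0.0983, 0.697 and 0.595 TPM (5.57 ± 0.21, adjusted p = 3.21e-11), and at 30.5 to 52.1 TPM in tibialis anterior. The 10 genes furthest above soleus thus held the fast-fibre genes Mybpc2, Pvalb and Myh1, the mesothelial genes Upk3b, Msln and Slpi, the immune and complement genes Saa3, Igkc and C3, and this RNA. The 10 furthest below held 7 myosins, light chains and troponins (Myl6b, Myl10, Tnnc1, Myl3, Tnni1, Myh7 and Myh6) beside Mettl21c, Hoxc10 and Ostn.

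**Figure D5:**
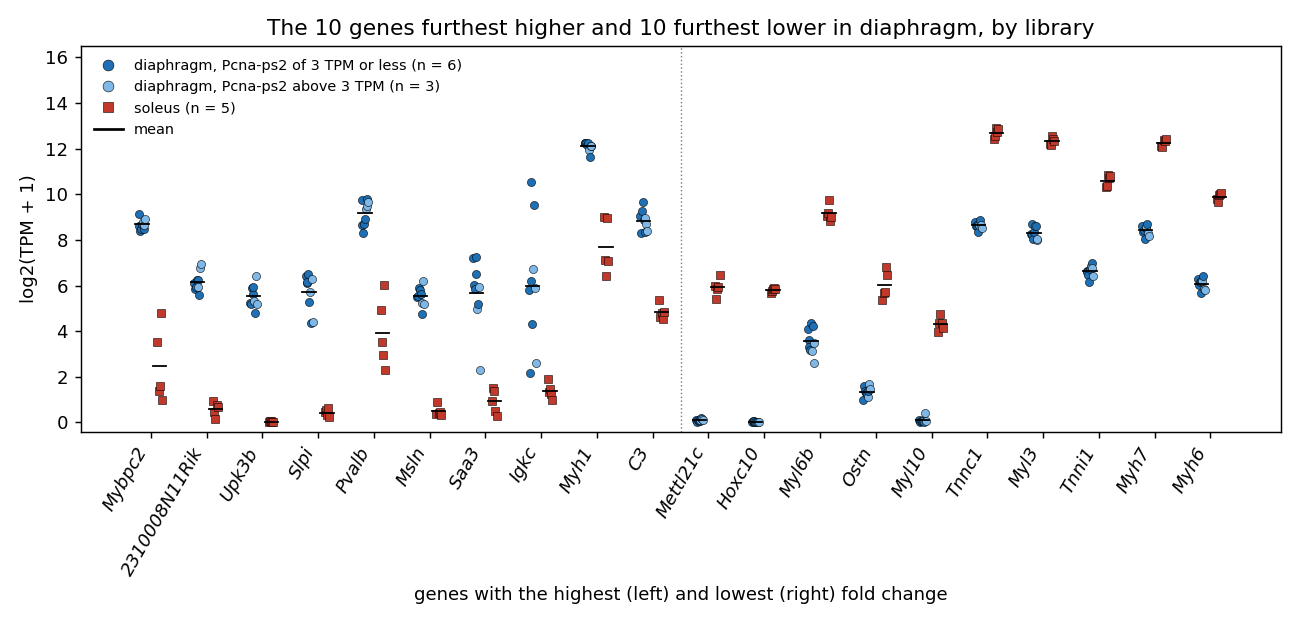
Levels as log2(TPM + 1) of the 10 called genes furthest above and the 10 furthest below soleus (mean TPM of at least 5), in each diaphragm library (circles, low-state dark and high-state pale) and soleus library (squares), with means as bars. No gene overlaps between muscles; Igkc spreads most within the diaphragm, from 3.50 to 1475 TPM, and Hoxc10 and Mettl21c lie near 0 in all 9 diaphragm libraries.

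The same muscles were compared in mice with the cachectic melanoma, with 10 mock diaphragm and 5 soleus libraries that the first fit did not use. There 5594 of 12969 genes (43.1%) were called, 26.6% higher and 16.6% lower in diaphragm. Of 6840 genes called in the non-cachectic mice and tested in both, 4088 were called in the same direction, which was 59.8% of the non-cachectic and 76.7% of the 5329 cachectic calls, and 39 in the opposite one. Slow sarcomere genes were lower in 13 of 13 cases and load-sensing genes in 16 of 18. For Hoxc10 the log2 fold change was -5.78 (adjusted p = 1.51e-17), for Myh7 -3.85, for Mettl21c -6.25 and for Upk3b 5.63. Among fast-fibre genes, Mybpc2 was at 4.75, Pvalb at 2.87 (adjusted p = 0.0343) and Myh4 at 1.21 (adjusted p = 0.338, not called), and a difference between the melanomas was not called for these 3 (adjusted p = 0.551, 0.329 and 0.4). Of the cachectic diaphragm libraries 9 of 10 were high-state and of the soleus libraries 5 of 5, so that state differed from the non-cachectic soleus throughout.

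The size of the muscle difference was tested between the melanomas with an interaction term. It was called for 339 of 13401 genes (2.53%), 35 of them on the lists. Tendon genes were the most frequent, with 8 called. For Tnmd the log2 fold change was -3.15 in the non-cachectic and -0.61 in the cachectic mice (interaction adjusted p = 0.000508), and for Comp -3.51 and -1.05 (adjusted p = 0.00662). Both chains of type I collagen differed in sign, with Col1a1 at -0.87 and 0.94 (interaction adjusted p = 0.0264) and Col1a2 at -0.73 and 1.22 (adjusted p = 0.00409), whereas Col3a1 was at 1.11 and 1.62 and not called (adjusted p = 0.681). Load-sensing genes differed in 6 cases, Ankrd1 among them at -1.05 and -3.17 (interaction adjusted p = 0.0169) and Fhl2 at -0.27 and -2.09 (adjusted p = 0.00911). For Myh7 (interaction adjusted p = 0.996), Hoxc10 (0.942) and Mettl21c (0.453) no difference between the melanomas was detectable. The cachectic melanoma, its effect on the muscles and the Pcna-ps2 state moved together in the soleus and cannot be told apart there.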

How the data were processed

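RNA-seq libraries of diaphragm (n = 9) and soleus (n = 5) of non-cachectic mice were compared. The authors deposited TPM for 47643 gene symbols. Per their methods, trimmed and filtered paired-end reads were aligned to GRCm38 (mm10) in CLC Genomics Workbench, which also computed the TPM. The annotation and the use of strand in counting are not given in the sources used here, so overlapping and antisense genes cannot be told apart. The labels and the methods name different kits and instruments. TPM holds no depth, so no counting interval was computed. Groups came from the labels. Column numbers could not be tied to labelled replicates, and the labels call the libraries biological replicates without naming animals, so p-values measure the spread between these libraries, which may be partly technical.

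Values were transformed to log2(TPM + 1). This understates changes of low genes. Genes with TPM of at least 1 in at least 5 libraries of a fit were tested with limma 3.58.1 in R 4.3.3 (lmFit, then eBayes with a mean-variance trend), two-sided, with Benjamini-Hochberg adjustment over all genes tested and a threshold of 0.05. The fit was repeated with the 6 diaphragm libraries at Pcna-ps2 of 3 TPM or less, and in the cachectic mice, and an interaction contrast tested the difference. An exact rank-sum permutation test of diaphragm against soleus was an alternative, with adjustment or at the study's unadjusted thresholds. The study's own Kruskal-Wallis and Dunn's tests were not run. Composition shares were tested by exact permutation over libraries. The procedure was tested on simulated data. The alternatives are given in the closing section.

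The named genes are the 10 highest and 10 lowest fold changes among calls in genes averaging 5 TPM or more, and members of 37 gene lists (655 genes, 653 of them in the table), of which those with the largest changes, the best known and the exceptions are named. The comparison, the lists and the genes were chosen with earlier results of these data known, so list counts are descriptions and no list was tested. Positions are from GENCODE M21 and sequences from RefSeq, both on GRCm38. A few genes of the lists are not reported here by name.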

Additional observations from a re-analysis of the deposited data

Results flagged for a closer look

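Single libraries stood apart from their group in 7 of 88 groups of values checked with Dixon's test at the 95% level, which flags about 1 group in 20 by chance. The liver marker sum was 10673.5 TPM in the diaphragm library Dia64, next to 906 TPM, and 91.3 TPM in the soleus library SOL62, next to 25.6 TPM. The adipocyte sum was 2678 TPM in the diaphragm library Dia63, next to 1799 TPM, and Igkc was at 1475 TPM in the same library, next to 726 TPM. The Schwann cell sum was 166 TPM in the soleus library SOL61, next to 103 TPM. Msln was at 0.856 TPM in SOL62, next to 0.374 TPM, and Myl10 at 0.341 TPM in the diaphragm library Dia68, next to 0.0820 TPM.

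The muscle difference itself differed between the melanomas for 339 genes by the interaction test of limma (adjusted p under 0.05), 256 of them with a larger diaphragm-minus-soleus value in the cachectic mice and 83 with a smaller one.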

How the results depend on the processing

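The total of 6918 called genes stayed within 1.5 times that count under a pseudocount of 0.1 (6941), no filter (8162), a mean TPM of at least 5 (4870), median-ratio scaling (7236), quantile normalization (7059), array weights (7420), a rank test (6448), 1 fit of 39 libraries (5243) and the low-state (6756) or high-state (6056) diaphragm libraries alone. It was 834 (508 higher, 326 lower) with an absolute log2 fold change of at least 1 added. With the rank test at the study's thresholds it was 850 (524 higher, 326 lower). These were an unadjusted p under 0.05 and an absolute log2 fold change over 1. Higher genes numbered 1547 with a mean TPM of at least 5 and 5084 with the mitochondrially encoded genes left out, and lower genes then numbered 2482. That turn follows from the rescaling, which moved the median of all genes from -0.06 to 0.11.

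Leaving out 1 library at a time gave 6350 to 6921 called genes, 2462 to 2953 higher, 3698 to 4274 lower and 6213 to 6665 in the low-state fit. The difference of the Myh2 share, 0.749 percentage points and not called, ranged from -1.25 to 2.69 and turned negative without Dia67 (-0.719), SOL64 (-1.21) or SOL65 (-1.25). The 20 leading genes were called in the same direction in 600 of 600 combinations of gene and alternative. They were picked as the largest calls from the same libraries, and several passed the filter through 1 muscle alone. Their agreement therefore adds no support. The composition shares kept their sign in 147 of 150 combinations, but the Myh2 share was called in none of its settings. List counts stayed within 1.5 times in 464 of 518. Without Dia64, the library with liver transcripts, the list counts given above changed beyond that limit only for myogenic factors called higher, from 1 to 2.

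The column numbers 61 to 65 occur in both muscles. The correlations of same-numbered deviations were 0.288, 0.166, 0.341, 0.0343 and 0.414, of which 1 was under 0.1, and 3 of 5 libraries correlated best with their own number, a hint from the data that falls short of pairing in every library. Whether same-numbered libraries share a mouse is not given, so the number was not used as a block in the reported fit. With it as a fixed replicate block 7746 genes were called in the 10 libraries, against 6650 in the same libraries without it. With the same numbers as a random effect over the 14 libraries (consensus correlation 0.495) 8278 were called. The last 2 fits and the high-state fit were added after the data were seen.

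Depth is unknown, so low values such as those of Fibcd1 have no stated precision.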
